A study of Rattus norvegicus with 8 samples.

Results

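Transcripts of 10 genes of inflammatory signalling were followed in rat liver: the chemokine genes Cxcl1, Cxcl9, Cxcl10, Cxcl11, Cxcl12 and Ccl2, the cytokine gene Il1b, the adhesion molecule gene Icam1, and Nfkbia and Nfkb1, which encode an inhibitor and a subunit of the transcription factor NF-kB. They were taken by name, and every probe set of the array whose only gene symbol is one of these names was used, which gave 13 probe sets of 31042 and 10 genes of 14217 named. Cxcl12 had 3 probe sets, Cxcl9 had 2 and the others had 1.

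The livers came from male Sprague-Dawley rats weighing 180 to 200 g, and there were 4 treatments with 2 arrays each, 8 arrays in all. The combination group received dexamethasone (1.5 mg/kg, a synthetic glucocorticoid, into muscle) together with AICAR (0.7 g/kg into the peritoneum), which cells turn into an AMP mimic that switches on AMPK, a kinase that senses low energy. The dexamethasone group received that steroid with saline in the peritoneum, the AICAR group received that nucleoside with saline in the muscle, and the vehicle group received saline at both sites. All livers were taken 8 h later, and RNA from the whole organ was labelled and hybridised to an Affymetrix array. Whether both arrays of a group came from different animals is not stated, so the p-values rest on array-to-array spread that could be purely technical.

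Chemokines are small secreted proteins that draw leukocytes along a gradient towards the cells that make them. NF-kB is held in the cytoplasm by inhibitors such as the product of Nfkbia, and once released it switches on chemokine, cytokine and adhesion genes, among them Nfkbia itself, which closes a negative feedback loop. Glucocorticoids are known to damp NF-kB target genes through the glucocorticoid receptor, while Cxcl9, Cxcl10 and Cxcl11 are also classic targets of interferons and share the receptor CXCR3 of activated T cells and natural killer cells. The title of the study puts AMPK upstream of the glucocorticoid receptor in metabolic regulation.

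Cxcl11, Cxcl10 and Cxcl9 are neighbours on rat chromosome 14, and Cxcl1 lies on that chromosome too. Their promoters are shown because these genes responded differently to the same treatments, as described below. The promoter of Nfkbia is added because its NF-kB sites are the textbook basis of the feedback loop. Each run reads 5′ to 3′ along the gene and holds 250 bases before and 50 bases after its start in RefSeq, on the GRCr8 build. Capitals mark matches to the kB-like motif GGAANNTCC or to the interferon response motif GAAANNGAA, on either strand.
Cxcl11, chr14:15973478-15973777, + strand: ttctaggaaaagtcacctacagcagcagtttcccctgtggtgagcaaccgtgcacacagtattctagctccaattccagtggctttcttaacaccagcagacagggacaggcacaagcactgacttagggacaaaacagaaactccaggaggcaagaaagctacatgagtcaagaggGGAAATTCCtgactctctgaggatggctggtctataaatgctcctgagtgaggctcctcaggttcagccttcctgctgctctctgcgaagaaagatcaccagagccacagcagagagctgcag
Cxcl10, chr14:15988816-15989115, + strand: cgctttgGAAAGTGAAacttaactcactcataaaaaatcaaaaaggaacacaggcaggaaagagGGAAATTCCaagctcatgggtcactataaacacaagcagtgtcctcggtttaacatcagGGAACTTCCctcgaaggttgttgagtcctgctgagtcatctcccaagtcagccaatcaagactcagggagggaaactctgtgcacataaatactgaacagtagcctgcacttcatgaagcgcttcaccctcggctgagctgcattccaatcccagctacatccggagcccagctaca
Cxcl9, chr14:16006916-16007215, + strand: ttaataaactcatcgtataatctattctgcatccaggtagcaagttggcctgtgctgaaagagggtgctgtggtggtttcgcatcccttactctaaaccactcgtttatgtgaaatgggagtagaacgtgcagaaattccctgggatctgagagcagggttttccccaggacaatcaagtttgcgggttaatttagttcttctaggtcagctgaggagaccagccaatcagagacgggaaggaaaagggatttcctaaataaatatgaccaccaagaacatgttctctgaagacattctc
Cxcl1, chr14:17479272-17479571, - strand: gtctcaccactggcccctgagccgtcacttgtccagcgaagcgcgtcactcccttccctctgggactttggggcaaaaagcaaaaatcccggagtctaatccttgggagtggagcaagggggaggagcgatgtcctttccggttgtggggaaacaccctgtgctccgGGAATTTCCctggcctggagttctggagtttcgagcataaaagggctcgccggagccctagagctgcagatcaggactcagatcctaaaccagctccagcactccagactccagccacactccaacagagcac
Nfkbia, chr6:78597023-78597322, - strand: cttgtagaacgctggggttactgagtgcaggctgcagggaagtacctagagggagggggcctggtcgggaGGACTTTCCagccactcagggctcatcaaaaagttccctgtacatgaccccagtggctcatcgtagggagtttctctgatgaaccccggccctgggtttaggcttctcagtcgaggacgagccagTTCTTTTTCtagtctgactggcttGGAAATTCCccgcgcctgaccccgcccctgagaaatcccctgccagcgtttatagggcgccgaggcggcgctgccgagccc
In Cxcl10 the kB-like motif matched from 186 to 178 and from 127 to 119 bases before the start, each on both strands, and the interferon motif matched from 243 to 235. Cxcl11 had a kB-like match on both strands from 73 to 65 bases before the start, and Cxcl1 had one from 83 to 75. Nfkbia had kB-like matches from 180 to 172 on the minus strand of the gene and from 31 to 23 on both strands, and an interferon-type match from 55 to 47 on the minus strand. Of the promoters not printed, Icam1 had a kB-like match on both strands from 218 to 210 bases before its start and Nfkb1 one from 5 to 13 bases after it. Neither motif matched in these windows of Cxcl9, Cxcl12 and Il1b. Among 33469 rat promoter windows of this length, 4.09% held the kB-like motif and 9.71% the interferon motif. Of the 10 genes, 9 had an entry in the promoter table, and Ccl2 is named only. A match is a description of the letters and says nothing of binding.

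Levels below are RMA values on the log2 scale, so a difference of 1 is a 2-fold difference, and levels of different genes are not compared. Lower quartiles of the arrays lay between 3.84 and 3.89, and no member had a group mean below the lower quartile of all tested values (3.86). Pearson's r between arrays was 0.997 to 0.998 within a group and 0.979 to 0.993 between groups. The 3′ minus 5′ difference of the actin control, a sign of RNA quality, was 1.77 to 1.83 in the combination, 2.03 to 2.04 after dexamethasone, 1.79 to 1.84 after AICAR and 2.20 to 2.26 in vehicle. That of the GAPDH control was 0.31 to 0.34, 0.40 to 0.43, 0.37 to 0.41 and 0.60 to 0.61 in the same order of groups. Between any groups the actin or the GAPDH control lay apart, so treatment and this measure cannot be told apart in any comparison.

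Liver holds many cell types, and lists of their markers moved with the treatments. The mean level of 11 measured Kupffer cell and macrophage markers (of 14 listed) was 4.76 to 4.80 in the combination, 7.60 to 7.75 after dexamethasone, 8.83 to 8.84 after AICAR and 8.65 to 8.66 in vehicle. Of these, 10 were lower and 1 (Lyz2) higher in the combination than in vehicle, which is 100% of the list beside 34.4% of all named genes. Cd5l, Cd163, Adgre1 and Aif1 had means below the lower quartile of all values there. The mean of 7 neutrophil and monocyte markers (of 10 listed) was 5.28 to 5.35 in the combination, 4.39 to 4.47 after dexamethasone, 5.13 to 5.19 after AICAR and 4.91 to 4.92 in vehicle, with Csf3r and Ccr2 below that quartile in all groups. Lymphocyte markers (13 of 15 measured) averaged 4.31 to 4.34 in the combination, 4.40 to 4.47 after dexamethasone, 4.66 to 4.71 after AICAR and 4.86 to 4.90 in vehicle. Their Cd5 was below the quartile in all groups and Klrd1 in all but vehicle. Hepatocyte markers (9 of 10 measured) stayed between 13.34 and 13.39 on all arrays. Sinusoidal endothelial markers (9 of 11) averaged 7.41 to 7.42, 7.46 to 7.48, 7.88 to 7.90 and 7.85 to 7.88 in the combination, dexamethasone, AICAR and vehicle groups, and stellate cell markers (11 of 11) averaged 7.15 to 7.19, 7.04 to 7.06, 7.36 to 7.37 and 6.87 to 6.94 in the same order of groups. The plot of marker lists shows the macrophage list as the one with the widest range. In whole liver, fewer cells of a type and less RNA per cell cannot be told apart, and the part of these shifts in the results below was not tested unless a value is given.

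**Figure D1:**
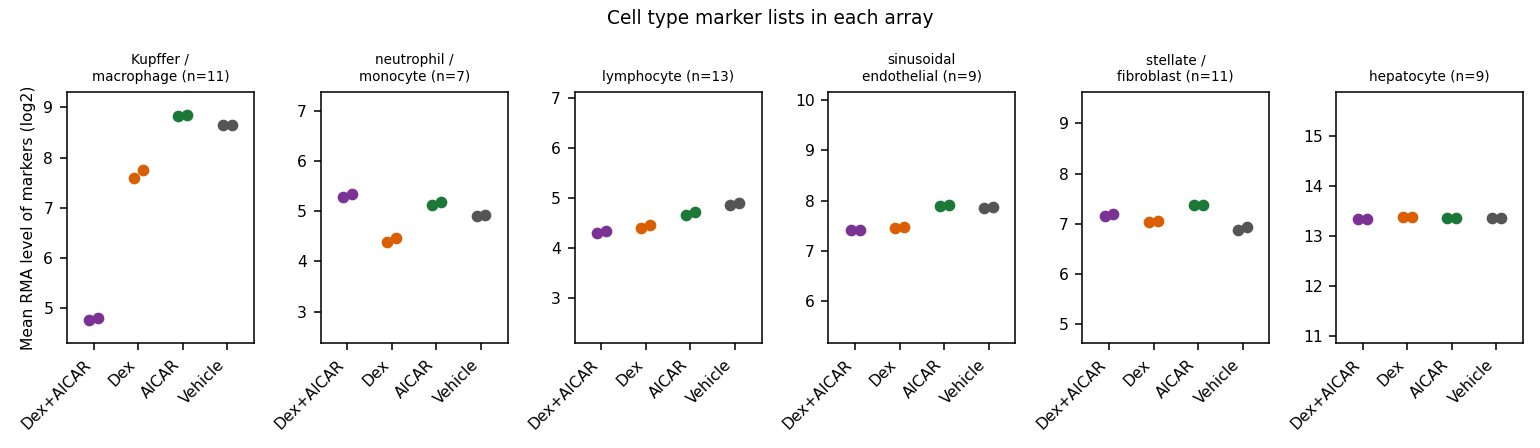
Mean RMA level (log2) of 6 lists of cell type markers in each array (1 point per array, n = number of markers measured), with the combination, dexamethasone, AICAR and vehicle groups from left to right; all panels span the same height. The macrophage list falls to 4.76 to 4.80 in the combination, against 8.65 to 8.66 in vehicle, while the hepatocyte list stays between 13.34 and 13.39.

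Differences were tested with limma over all probe sets and called at an adjusted p under 0.05. After dexamethasone alone 8 of the 10 genes differed from vehicle, 2 higher (Cxcl10 and Nfkbia) and 6 lower (Cxcl1, Cxcl9, Cxcl11, Cxcl12, Il1b and Icam1), beside 18.4% of probe sets array-wide, 8.67% up and 9.77% down. The count was 5 without dexamethasone replicate 1, without vehicle replicate 1 or without vehicle replicate 2. After AICAR alone 8 genes differed from vehicle, 6 higher (Cxcl9, Cxcl10, Cxcl12, Ccl2, Icam1 and Nfkbia) and 2 lower (Cxcl1 and Cxcl11), beside 12.9% of probe sets array-wide, 5.45% up and 7.47% down. That count was 4 without any 1 of the AICAR or vehicle arrays. In the combination 6 genes differed from vehicle, with Ccl2 higher and Cxcl1, Cxcl9, Cxcl12, Il1b and Nfkb1 lower, beside 26.9% of probe sets array-wide, 13.3% up and 13.6% down. These 3 comparisons share the vehicle arrays. Counted over the 14217 named genes in place of probe sets, the shares called were 34.4% in the combination, 22.7% after dexamethasone and 15.2% after AICAR.

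When AICAR was added to dexamethasone, 6 genes differed from dexamethasone alone: Ccl2, Cxcl1, Icam1 and Cxcl11 were higher, and Cxcl10 and Cxcl12 were lower, beside 20.1% of probe sets array-wide, 10.2% up and 9.91% down. Set against AICAR alone, the combination had 3 genes higher (Ccl2, Cxcl1 and Cxcl11) and 5 lower (Cxcl12, Il1b, Cxcl9, Cxcl10 and Icam1), beside 30.8% of probe sets array-wide, 15.9% up and 14.9% down. The interaction, which is the effect of dexamethasone on top of AICAR minus its effect on top of saline, was called for 7 of the 10 genes, beside 15.6% of probe sets array-wide, 8.63% positive and 7.02% negative. It was positive for Cxcl1, Ccl2 and Cxcl11, negative for Cxcl10, Cxcl9, Cxcl12 and Nfkbia, and not called for Il1b, Icam1 and Nfkb1. To order the single agents, dexamethasone was also set against AICAR, and 7 genes differed, with Cxcl10 higher and Ccl2, Cxcl1, Cxcl9, Cxcl12, Icam1 and Il1b lower after dexamethasone, beside 26.0% of probe sets array-wide. Counted over named genes, the shares were 25.4% for the combination against dexamethasone and 38.2% against AICAR. They were 20% for the interaction and 31.3% for dexamethasone against AICAR. Over the 10 genes the median log2 difference from vehicle was -0.29 in the combination, -0.30 after dexamethasone and 0.38 after AICAR, beside -0.0059, -0.03 and 0.0010 over all named genes.

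**Figure D2:**
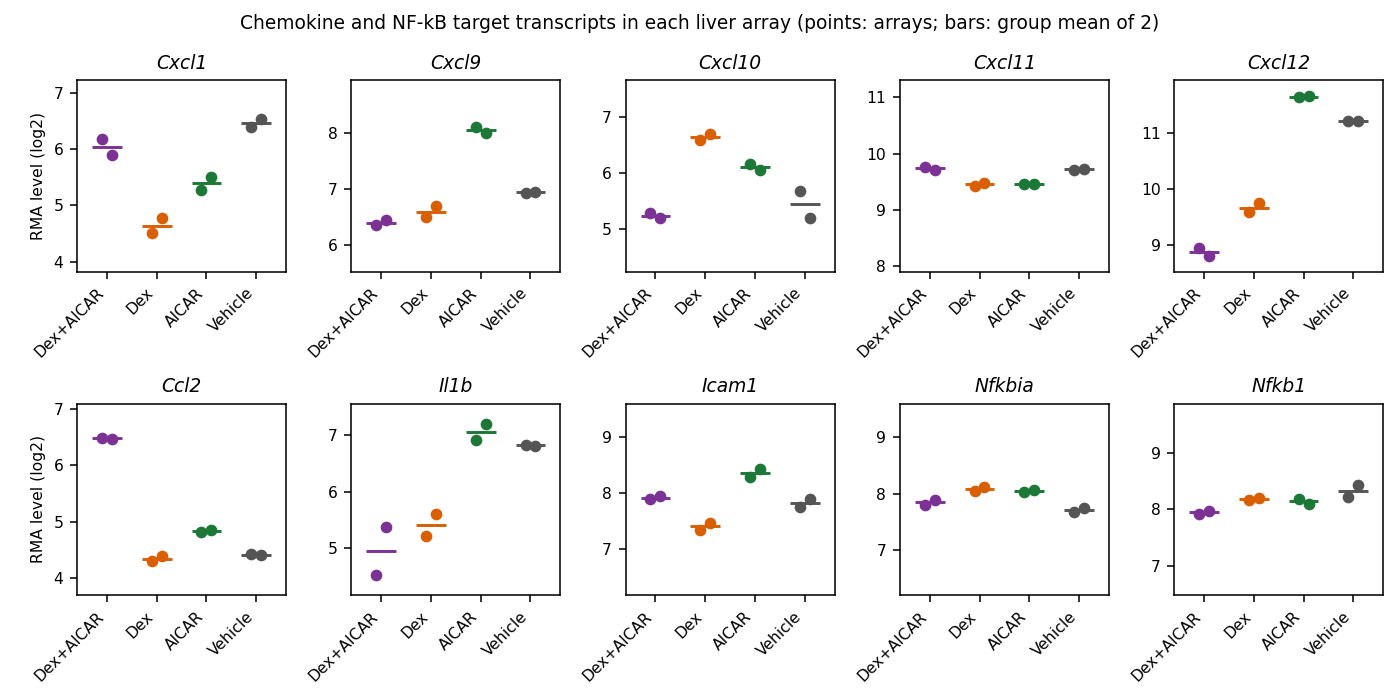
RMA level (log2) of each of the 10 genes on each array (points) with the group mean of 2 arrays (bars), groups from left to right combination, dexamethasone, AICAR and vehicle; all panels span the same height. Ccl2 is near 6.5 in the combination and under 5 elsewhere, Cxcl12 runs from 8.81 in the combination to 11.64 after AICAR, and Cxcl11, Nfkbia and Nfkb1 move little.

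Among the ligands of CXCR3, Cxcl10 responded to each single agent but not to their combination. It read 5.29 and 5.2 in the combination, 6.59 and 6.70 after dexamethasone, 6.16 and 6.06 after AICAR, and 5.69 and 5.19 in vehicle. The dexamethasone arrays were above all others, the AICAR arrays were above both vehicle arrays, and the combination lay within the range of vehicle. Cxcl10 rose by 1.20 ± 0.14 after dexamethasone (standard error, 2.3-fold, adjusted p = 0.000601). It rose by 0.67 ± 0.14 after AICAR (adjusted p = 0.0196), a call that was lost without AICAR replicate 1 (adjusted p = 0.11), AICAR replicate 2 (adjusted p = 0.0609) or vehicle replicate 2 (0.42, adjusted p = 0.0574). Against dexamethasone alone the combination was 2.64-fold lower (-1.40 ± 0.14, adjusted p = 0.000251), and against AICAR alone it was lower as well (-0.87 ± 0.14, adjusted p = 0.00195). The difference of the combination from vehicle was -0.20 with a 95% interval from -0.53 to 0.13 (adjusted p = 0.371), and without vehicle replicate 2 it became -0.45 and was called (adjusted p = 0.0205).

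Cxcl9, its neighbour, rose after AICAR alone and not in the presence of dexamethasone. Its brighter probe set read 6.36 and 6.44 in the combination, 6.49 and 6.70 after dexamethasone, 8.09 and 7.99 after AICAR, and 6.92 and 6.95 in vehicle. The AICAR arrays stood above all others and both groups with dexamethasone lay below vehicle. The rise after AICAR was 1.10 ± 0.09 (2.15-fold, adjusted p = 0.000232), and the other probe set gave 1.17 ± 0.07 (adjusted p = 5.62e-05). In the combination Cxcl9 was lower than after AICAR by 3.12-fold (-1.64 ± 0.09, adjusted p = 4.24e-06) and lower than in vehicle (-0.54 ± 0.09, adjusted p = 0.00219). Dexamethasone alone gave -0.34 ± 0.09 against vehicle (adjusted p = 0.0288), a call lost without dexamethasone replicate 1 (adjusted p = 0.137), vehicle replicate 1 (adjusted p = 0.0863) or vehicle replicate 2 (adjusted p = 0.119). The combination and dexamethasone alone, neighbours in the order of levels, were not told apart (-0.19, 95% interval from -0.40 to 0.01).

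The third ligand, Cxcl11, moved little. It read 9.77 and 9.70 in the combination, 9.43 and 9.48 after dexamethasone, 9.47 and 9.46 after AICAR, and 9.71 and 9.73 in vehicle. Both single agents lay below vehicle and the combination lay around it. The falls were 0.26 on the log2 scale after dexamethasone (-0.26 ± 0.07, adjusted p = 0.0333) and after AICAR (-0.26 ± 0.07, adjusted p = 0.0473), and each call was lost without any 1 of the 8 arrays (adjusted p from 0.0542 to 0.131 and from 0.0536 to 0.167). The combination was above dexamethasone alone (0.28 ± 0.07, adjusted p = 0.0238) and above AICAR alone (0.27 ± 0.07, adjusted p = 0.0177), and each of these calls was lost without any 1 array of the groups compared (adjusted p from 0.0536 to 0.149 and from 0.0522 to 0.114). After cyclic loess, with all arrays kept, the combination minus AICAR alone was 0.17 and not called (adjusted p = 0.0879), nor was AICAR minus vehicle (-0.19, adjusted p = 0.107). The interaction (0.53 ± 0.10, adjusted p = 0.00836) kept its call under every alternative run. The receptor gene Cxcr3 itself read 3.89 and 4.0 in the combination, 4.09 and 4.13 after dexamethasone, 4.41 and 4.48 after AICAR, and 4.13 and 4.30 in vehicle, and its difference of the combination from vehicle (-0.27, adjusted p = 0.0486) was not called once vehicle replicate 2 (-0.18, adjusted p = 0.261) or any 1 of the treated arrays was left out (adjusted p from 0.0624 to 0.25).

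Cxcl1, which encodes a neutrophil-attracting chemokine, fell after each single agent, and in the combination lay nearest to vehicle. It read 6.19 and 5.90 in the combination, 4.51 and 4.77 after dexamethasone, 5.28 and 5.50 after AICAR, and 6.40 and 6.54 in vehicle. No arrays of different groups overlapped, and the order from high to low was vehicle, combination, AICAR and dexamethasone. The fall after dexamethasone was 3.55-fold (-1.83 ± 0.13, adjusted p = 3.24e-05) and after AICAR 2.11-fold (-1.08 ± 0.13, adjusted p = 0.0017). In the combination Cxcl1 was 2.64-fold above dexamethasone alone (1.40 ± 0.13, adjusted p = 0.000152) and above AICAR alone (0.65 ± 0.13, adjusted p = 0.00551). Against vehicle the combination was lower by 0.43 (-0.43 ± 0.13, adjusted p = 0.0417), and that call was lost without combination replicate 2 (-0.28, adjusted p = 0.243), vehicle replicate 1 (adjusted p = 0.0718) or vehicle replicate 2 (adjusted p = 0.19). Its interaction was the largest of the 10 genes (2.48 ± 0.19, adjusted p = 7.79e-05).

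Neutrophil markers were measured in the same arrays as Cxcl1. S100a9, a calcium-binding protein gene abundant in neutrophils, read 7.98 and 7.81 in the combination, 5.77 and 5.65 after dexamethasone, 7.43 and 7.50 after AICAR, and 6.84 and 6.84 in vehicle. It fell after dexamethasone as Cxcl1 did (-1.14) but was above vehicle after AICAR (0.62) and in the combination (1.05), where Cxcl1 was below vehicle. S100a9 is not the whole list: of 7 measured neutrophil and monocyte markers, 3 (S100a8, S100a9 and Csf3r) were higher than vehicle in the combination and after AICAR, and 4 were lower after dexamethasone, where Csf3r was not called (-0.04). The shares called were 42.9% in the combination, 42.9% after AICAR and 57.1% after dexamethasone. Over all named genes they were 34.4%, 15.2% and 22.7%, and nothing is read from the counts of so short a list. Camp (-0.25), Ccr2, Fcnb and Ly6c were not called in the combination. The Cxcl1 receptor gene Cxcr2 read between 3.74 and 4.18 on all arrays and was not called in any comparison.

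Ccl2, which encodes the chemokine that recruits monocytes through CCR2, had the largest rise of the 10 genes in the combination against vehicle. It read 6.49 and 6.48 in the combination, 4.30 and 4.38 after dexamethasone, 4.82 and 4.85 after AICAR, and 4.43 and 4.40 in vehicle. The combination arrays were far above every other array, AICAR came next, and dexamethasone and vehicle were neighbours that were not told apart (-0.08, 95% interval from -0.24 to 0.09, adjusted p = 0.54). Ccl2 in the combination was 4.20-fold above vehicle (2.07 ± 0.07, adjusted p = 2.64e-07), 4.42-fold above dexamethasone alone (2.14 ± 0.07, adjusted p = 4.94e-07) and 3.14-fold above AICAR alone (1.65 ± 0.07, adjusted p = 1.03e-06). AICAR alone raised it by 0.42 ± 0.07 (adjusted p = 0.00723). The interaction was 1.72 ± 0.10 (adjusted p = 1.99e-05). Its receptor gene Ccr2 was at or below 3.42 on all arrays. Ccl7, a related monocyte chemoattractant gene, was also higher in the combination than in vehicle (0.74), at 4.32 and 4.36 in the combination, 3.73 and 3.35 after dexamethasone, 3.80 and 3.83 after AICAR, and 3.70 and 3.51 in vehicle, and all but the combination were below the lower quartile of all values.

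Cxcl12 encodes a chemokine made constitutively by stromal cells, which retains leukocytes and progenitors through CXCR4. Its brightest probe set read 8.96 and 8.81 in the combination, 9.60 and 9.74 after dexamethasone, 11.63 and 11.64 after AICAR, and 11.21 and 11.20 in vehicle. No groups overlapped, and both groups with dexamethasone were far below both groups without it. Cxcl12 was 4.99-fold lower in the combination than in vehicle (-2.32 ± 0.08, adjusted p = 3.33e-07) and 2.90-fold lower after dexamethasone alone (-1.54 ± 0.08, adjusted p = 6.68e-06). The combination was also below dexamethasone alone (-0.78 ± 0.08, adjusted p = 0.000309) and 6.72-fold below AICAR alone (-2.75 ± 0.08, adjusted p = 1.47e-07). The other probe sets gave -2.05 ± 0.08 and -2.05 ± 0.10 for the combination and -1.22 ± 0.08 and -1.24 ± 0.10 for dexamethasone, each against vehicle. For AICAR alone the probe sets disagreed, with 0.43 ± 0.08 (adjusted p = 0.0134), 0.42 ± 0.10 (adjusted p = 0.031) and 0.06 ± 0.08 (adjusted p = 0.705). The first of these calls was lost without any 1 of the AICAR or vehicle arrays (adjusted p from 0.0623 to 0.0694). Of its receptors, Cxcr4 read 5.62 and 5.87 in the combination, 5.61 and 5.55 after dexamethasone, 5.67 and 5.55 after AICAR, and 5.15 and 5.65 in vehicle on its brightest probe set and was not called there. With the mean over its probe sets it was higher in the combination than after dexamethasone (0.63, adjusted p = 0.013), AICAR (0.54, adjusted p = 0.0176) and vehicle (0.68, adjusted p = 0.00656), and without vehicle replicate 2 the brightest one was called against vehicle too (0.59, adjusted p = 0.0132). Beside it, the scavenging receptor gene Ackr3 was lower after dexamethasone (-0.65 ± 0.07, adjusted p = 0.000445) and higher after AICAR (0.44 ± 0.07, adjusted p = 0.00716, and 0.0507 without AICAR replicate 2).

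Il1b encodes a cytokine that macrophages release on inflammatory stimulation. It read 4.52 and 5.37 in the combination, 5.21 and 5.61 after dexamethasone, 6.92 and 7.21 after AICAR, and 6.84 and 6.81 in vehicle. Both groups with dexamethasone were below both groups without it, and the combination arrays overlapped those of dexamethasone alone. Against vehicle Il1b was 3.68-fold lower in the combination (-1.88 ± 0.25, adjusted p = 0.000589) and 2.66-fold lower after dexamethasone (-1.41 ± 0.25, adjusted p = 0.00453). The combination was 4.36-fold below AICAR alone (-2.12 ± 0.25, adjusted p = 0.000272). Between the combination and dexamethasone the difference was -0.47, with a 95% interval from -1.03 to 0.10 (adjusted p = 0.243), and without combination replicate 2 it was -0.89 and called (adjusted p = 0.0169). The interaction was -0.71 (95% interval from -1.51 to 0.09, adjusted p = 0.221), and became -1.14 and called without that array (adjusted p = 0.0227). AICAR against vehicle gave 0.24 with an interval from -0.32 to 0.81.

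The group means of Cxcl12, Cxcl9 and Il1b ran in the order AICAR, vehicle, dexamethasone and combination from high to low, although for Il1b neither AICAR and vehicle nor the combination and dexamethasone were told apart, and for Cxcl9 the combination and dexamethasone were not. A dimmer probe set of Cxcl12 did not tell AICAR and vehicle apart either (0.06, adjusted p = 0.705). The mean of the macrophage list had that order too, as did 8 of its 11 markers. The others were Clec4f, lower after AICAR than in vehicle (-0.49, adjusted p = 0.0111), Cd163 (-0.35, not called) and Lyz2, which was highest in the combination. Of the 8, only Cd5l, C1qa and C1qb were called higher after AICAR than in vehicle, and Aif1 hardly differed there (0.007). The call of Cd5l (0.28, adjusted p = 0.0379) was lost without any 1 of the AICAR, vehicle or combination arrays. It was also lost with only the groups compared (adjusted p = 0.0853), the replicate block (adjusted p = 0.0537) and the mean over probe sets (adjusted p = 0.0553). The mean of the sinusoidal endothelial list ran in that order as well, with 2 of its 9 markers. Its AICAR and vehicle arrays lay close together (7.88 to 7.90 and 7.85 to 7.88). The order differed for Ccl2, whose highest level was in the combination, where the macrophage list was lowest. The part of cell content in these values was not tested.

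Icam1 encodes the adhesion molecule to which leukocyte integrins bind on activated endothelium. It read 7.90 and 7.95 in the combination, 7.34 and 7.47 after dexamethasone, 8.28 and 8.43 after AICAR, and 7.75 and 7.89 in vehicle. The AICAR arrays were highest and the dexamethasone arrays lowest, with the combination beside vehicle. It rose by 0.54 ± 0.09 after AICAR (adjusted p = 0.00717), with adjusted p = 0.0516 without vehicle replicate 1. It fell by 0.41 after dexamethasone (-0.41 ± 0.09, adjusted p = 0.0142), with adjusted p = 0.0809 without dexamethasone replicate 1 and 0.0919 without vehicle replicate 2. The combination was above dexamethasone alone (0.51 ± 0.09, adjusted p = 0.00444) and below AICAR alone (-0.43 ± 0.09, adjusted p = 0.00646), and its difference from vehicle was 0.10 with an interval from -0.10 to 0.31. Dexamethasone gave close values with and without AICAR (-0.43 and -0.41), and the interval of the interaction ran from -0.32 to 0.27. The integrin genes Itgal and Itgb2, whose product binds this molecule, were lower in the combination than in vehicle (-2.22 ± 0.12 and -2.20 ± 0.13) and after dexamethasone than in vehicle (-1.31 ± 0.12 and -1.15 ± 0.13).

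Nfkbia and Nfkb1 changed little. Nfkbia read 7.80 and 7.88 in the combination, 8.04 and 8.13 after dexamethasone, 8.03 and 8.06 after AICAR, and 7.67 and 7.74 in vehicle. All treated arrays lay above both vehicle arrays, and the single agents were neighbours that were not told apart (dexamethasone minus AICAR 0.04, 95% interval from -0.13 to 0.21). Nfkbia rose by 0.38 ± 0.08 after dexamethasone (1.30-fold, adjusted p = 0.00829, and 0.0531 without vehicle replicate 1). It rose by 0.34 ± 0.08 after AICAR (1.27-fold, adjusted p = 0.0211), a call lost without any 1 of the AICAR or vehicle arrays (adjusted p from 0.0591 to 0.104). In the combination it was 0.14 above vehicle (interval from -0.03 to 0.31, adjusted p = 0.226), and the interaction was -0.58 ± 0.11 (adjusted p = 0.00749). The combination was 0.24 below dexamethasone alone (-0.24 ± 0.08, adjusted p = 0.0544) and 0.20 below AICAR alone (-0.20 ± 0.08, adjusted p = 0.072), and both differences were called after cyclic loess (adjusted p = 0.0237 and 0.0185). Centring on brighter probe sets, the filter on dim probe sets, the mean over probe sets and the trended prior called both as well. Neither was called with only the groups compared or with the replicate block.

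Nfkb1, which encodes the precursor of the p50 subunit, read 7.92 and 7.98 in the combination, 8.17 and 8.19 after dexamethasone, 8.18 and 8.10 after AICAR, and 8.22 and 8.42 in vehicle. The combination arrays were the lowest, and the other groups lay close together. Only the difference of the combination from vehicle was called (-0.37 ± 0.09, 1.30-fold, adjusted p = 0.0113), and not without combination replicate 1 (adjusted p = 0.0737) or vehicle replicate 2 (adjusted p = 0.0769). Its interval against vehicle ran from -0.34 to 0.05 after dexamethasone and from -0.38 to 0.01 after AICAR. With a trended prior the combination was also called below dexamethasone alone (-0.23, adjusted p = 0.0193) and AICAR alone (-0.19, adjusted p = 0.0441). Cyclic loess called only the latter (-0.27, adjusted p = 0.0481).

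**Figure D3:**
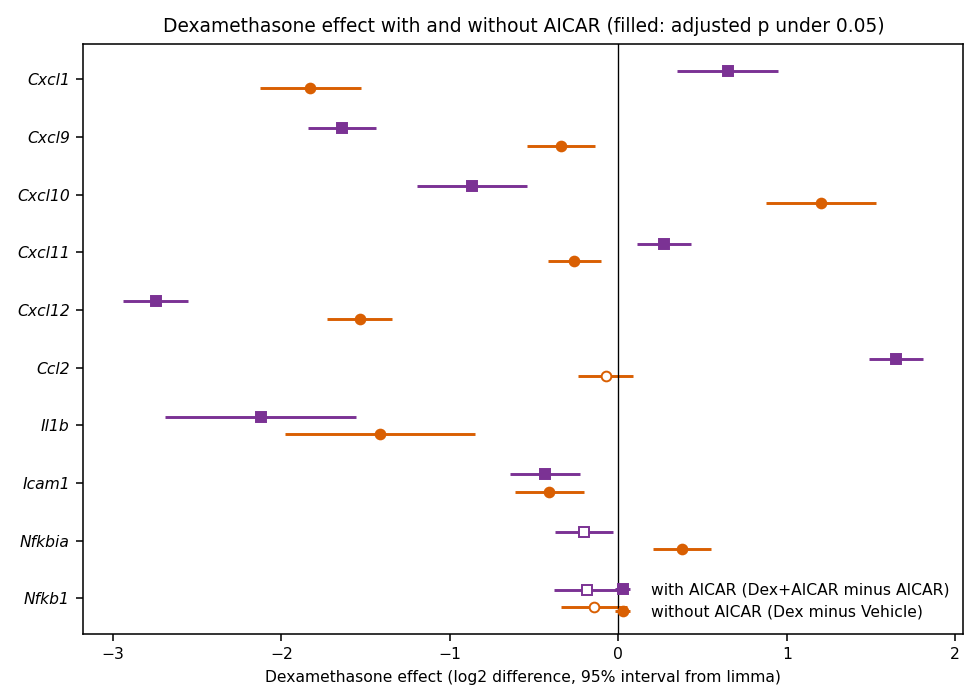
Log2 difference made by dexamethasone for each gene with AICAR (combination minus AICAR, squares, upper) and without it (dexamethasone minus vehicle, circles, lower), with 95% intervals from limma (2 arrays per group); filled symbols have an adjusted p under 0.05. Cxcl1 (0.65 with AICAR and -1.83 without) and Cxcl10 (-0.87 with and 1.20 without) lie on opposite sides of 0, and Icam1 has nearly the same value either way (-0.43 and -0.41).

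The plot of dexamethasone effects sets both backgrounds side by side. For Cxcl1, dexamethasone gave 0.65 with AICAR and -1.83 without it, and for Cxcl11 0.27 and -0.26, so the sign turned upwards for both. Both Cxcl11 effects were small and lost their calls when single arrays of the groups compared were left out, while its interaction kept its call. For Cxcl10 it gave -0.87 with AICAR and 1.20 without it, and the sign turned the other way. Ccl2 responded to dexamethasone only with AICAR present (1.65 with and -0.08 without, interaction called). The falls of Cxcl12 (-2.75 with and -1.54 without) and Cxcl9 (-1.64 with and -0.34 without) were deeper with AICAR, and their interactions were -1.21 ± 0.12 (adjusted p = 0.000336) and -1.30 ± 0.13 (adjusted p = 0.000327). The interaction of Cxcl10 was -2.07 ± 0.20 (adjusted p = 0.000349).

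The wider pathway was read from 4 lists of other genes, of which 109 of 122 were measured. Among them 43 differed from vehicle in the combination (16 higher and 27 lower), 30 after dexamethasone (8 higher and 22 lower) and 16 after AICAR (11 higher and 5 lower). These are 39.4%, 27.5% and 14.7% of the listed genes, beside 34.4%, 22.7% and 15.2% of all named genes, and nothing is read from these counts about the lists as such. The count after AICAR was 7 without AICAR replicate 1, 9 without vehicle replicate 1 and 7 without vehicle replicate 2. The median log2 difference was -0.09 in the combination, -0.07 after dexamethasone and 0.10 after AICAR, beside -0.0059, -0.03 and 0.0010 over all named genes. The interaction was called for 31 (10 positive and 21 negative), and for fewer when any 1 array was left out. These 31 are 28.4% of the listed genes, beside 20% of all named genes (11.9% positive and 8.05% negative).

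Of 25 other chemokine ligand genes, 1 was higher (Ccl7) and 9 lower in the combination than in vehicle, none was higher and 7 lower after dexamethasone, and 3 were higher and 2 lower after AICAR. That is 40.0%, 28.0% and 20.0% of the list, beside 34.4%, 22.7% and 15.2% of all named genes. Ccl6, a macrophage chemokine gene, read 5.37 and 5.28 in the combination, 9.29 and 9.45 after dexamethasone, 11.07 and 11.12 after AICAR, and 10.97 and 10.95 in vehicle. Its level in the combination was far below all others, with a difference of -5.64 ± 0.08 from vehicle (adjusted p = 3.53e-09) and an interaction of -4.18 ± 0.11 (adjusted p = 5.97e-07). Ccl5, a T cell attractant gene, fell to 5.45 and 5.32 in the combination and 5.96 and 6.07 after dexamethasone, against 7.46 and 7.50 in vehicle (-2.10 ± 0.09 and -1.46 ± 0.09). Cxcl13, a B cell attractant gene, was lower after AICAR (-1.19 ± 0.07, adjusted p = 4.34e-05) and in the combination (-1.0 ± 0.07) than in vehicle. It was called lower after dexamethasone as well, at 7.21 and 7.20 against 7.59 and 7.52 in vehicle. That call was lost without vehicle replicate 1 (-0.32).

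Of 21 genes of chemokine receptors and leukocyte integrins, none was higher and 4 were lower in the combination than in vehicle, none was higher and 4 lower after dexamethasone, and 2 were higher and 1 lower after AICAR. That is 19.0%, 19.0% and 14.3% of this short list, beside 34.4%, 22.7% and 15.2% of all named genes. Ackr4, which encodes a receptor that clears chemokines, read 6.20 and 6.52 in the combination, 5.30 and 5.17 after dexamethasone, 6.21 and 6.44 after AICAR, and 6.89 and 6.78 in vehicle. It was lowest after dexamethasone alone (-1.60 ± 0.12 against vehicle), and its interaction was 1.64 ± 0.17 (adjusted p = 0.000515), of the same sign as that of Cxcl1.

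Of 36 genes of NF-kB signalling, 9 were higher and 8 lower in the combination than in vehicle, 4 were higher and 5 lower after dexamethasone, and 2 were higher and none lower after AICAR, which makes 47.2%, 25% and 5.56% of the list against 34.4%, 22.7% and 15.2% of all named genes. Nfkbiz, which encodes a nuclear IkB protein that NF-kB induces, read 8.29 and 8.33 in the combination, 7.24 and 7.18 after dexamethasone, 6.75 and 6.69 after AICAR, and 7.04 and 6.81 in vehicle. It was highest in the combination (1.39 ± 0.09 against vehicle, adjusted p = 1.09e-05), with an interaction of 1.31 ± 0.13 (adjusted p = 0.000347). Of the interleukin 1 receptor genes, the decoy receptor gene Il1r2 was higher in the combination than in vehicle (1.48 ± 0.11, with vehicle below the lower quartile of all values) and the accessory chain gene Il1rap was lower (-1.07 ± 0.07). The receptor gene Il1r1 was higher after dexamethasone than in vehicle (0.61 ± 0.08, adjusted p = 0.000874). It read 9.84 and 9.80 in the combination, against 9.19 and 9.32 in vehicle. Tlr4, the sensor of bacterial lipopolysaccharide, was lower after dexamethasone than in vehicle (-0.56 ± 0.07, adjusted p = 0.00102).

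Of 27 other NF-kB target genes, 6 were higher and 6 lower in the combination than in vehicle, 4 were higher and 6 lower after dexamethasone, and 4 were higher and 2 lower after AICAR. The shares called were 44.4%, 37.0% and 22.2%, with 34.4%, 22.7% and 15.2% over all named genes. Il1rn, which encodes the antagonist of the Il1b receptor, read 7.49 and 7.53 in the combination, 6.24 and 6.39 after dexamethasone, 6.17 and 6.20 after AICAR, and 5.98 and 6.0 in vehicle. It was thus highest in the combination (1.52 ± 0.08 against vehicle, adjusted p = 2.36e-06), where Il1b was lowest. Il1a, a cytokine gene related to Il1b, was lower there (-1.10 ± 0.07). Irf1, an interferon-induced transcription factor gene, was lower after dexamethasone (-0.82 ± 0.09, adjusted p = 0.00027), and Sod2, the mitochondrial superoxide dismutase gene, was higher after AICAR (1.0 ± 0.07, adjusted p = 0.000114). The cell cycle gene Ccnd1 had the largest interaction among these targets (3.28 ± 0.12, adjusted p = 2.19e-06). The cytokine genes Tnf and Il6 read between 4.73 and 5.15 and between 2.83 and 3.05 on all arrays and were not called in any comparison with vehicle, except that Tnf after AICAR (0.23) was called without AICAR replicate 2 (0.40, adjusted p = 0.0495).

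**Figure D4:**
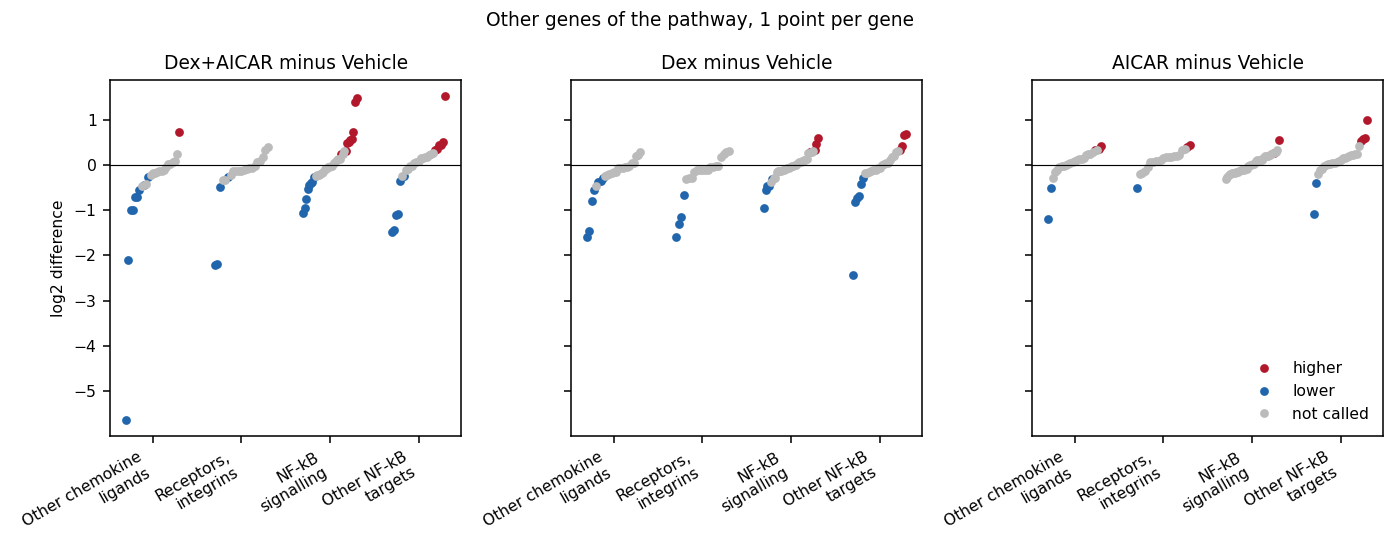
Log2 difference from vehicle of 109 other genes of chemokine and NF-kB biology, 1 point per gene sorted within each of 4 lists, for the combination, dexamethasone and AICAR from left to right; red and blue points are higher and lower at an adjusted p under 0.05, grey points are not called. The lowest point is Ccl6 in the combination (-5.64), and 39.4%, 27.5% and 14.7% of the genes are called in the panels from left to right, beside 34.4%, 22.7% and 15.2% of all named genes.

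Genes whose pattern over the 8 arrays was most like that of a member were sought among 1090 other genes whose group means spanned at least 1. Arrays of the same group share their treatment, so the 8 arrays are not independent points and these correlations are descriptions. Closest to Cxcl1 was Ccnd1 (r = 0.974), followed by RT1-T24-4 and Mex3b (r = 0.970 and 0.967), and Ccnd1 read 8.68 and 8.67 in the combination, 6.37 and 6.59 after dexamethasone, 7.84 and 7.81 after AICAR, and 8.91 and 8.92 in vehicle. Closest to Cxcl10 were Acsf2, Fasn and Acaca (r = 0.961, 0.960 and 0.958), and Acsf2, which encodes an acyl-CoA synthetase, read 6.73 and 6.71 in the combination, 8.11 and 8.16 after dexamethasone, 7.70 and 7.58 after AICAR, and 6.92 and 7.04 in vehicle. Closest to Cxcl9 were Nr1h2, Nr1d1 and Pla2g2a (r = 0.993, 0.990 and 0.989). Closest to Cxcl12 were Cyb5r3, Fgr and Alas2 (r = 0.998, 0.997 and 0.996), closest to Il1b were Apbb1ip, Serpinb9 and Slc9a9 (r = 0.980, 0.980 and 0.979), and closest to Ccl2 were Acot1, B3galnt1 and Fam111a (each r = 0.992).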

How the data were processed

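The authors deposited log2 values, 1 for each probe set on each array. The submitters' processing notes name RMA and the affy package, with versions not given in the sources used here. That the values are log2 was read from their range. RMA corrects background, equalises the arrays and summarises probes, gives no detection call and understates changes towards low levels. Of 31099 probe sets 57 array controls were left out. Of 31042 tested, 20826 carried 1 gene symbol in the platform annotation, 436 several and 9780 none here, and symbols were updated by gene ID from RefSeq. The brightest probe set over all arrays stood for a gene.

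Groups were compared with limma 3.58.1 (R 4.3.3), with group as the only factor, fitted to the 8 arrays together. The fit left 4 residual degrees of freedom and borrowed 4.58 from the prior, and p-values were adjusted over all tested probe sets by the method of Benjamini and Hochberg. A plus-minus value is a standard error of a log2 difference (n = 2 arrays per group), and intervals are 95%. The number of arrays limits the precision. The smallest two-sided p of an exact permutation test at 2 against 2 arrays is 0.333, so none was made. The code was tested on simulated data. Dexamethasone against AICAR was fitted only to order neighbouring groups.

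The 10 genes, the lists, the naming rule and the tests were chosen with earlier results of these data known. Named genes were all 10 members and the 3 genes most like each member whose group means spanned at least 1. From the lists, up to 3 called genes with the smallest p per list and comparison were eligible. Not all of these are described: Bcl2a1, Ccl9, Vcam1, Xcl1, Cxcr5 and Irak1 were left out, and the others are not given for every comparison. The alternatives were leaving out each array, only the groups compared, cyclic loess, centring on brighter probe sets, a filter on dim probe sets, the mean over probe sets, a trended prior and the replicate number as a block. Cxcr2, Cxcr3, Cxcr4, Ccr2, Ccl7, Tnf, Il6 and S100a9 were named after their values were seen, and the motifs were chosen after the promoters were read. Both motifs are 1 base shorter than the forms searched first, and some of the matches given would fail the longer forms. Promoter sequences are from RefSeq (GRCr8). The labels do not say whether replicate numbers pair the arrays. Differences between replicates correlated at r = -0.04 to 0.16 between groups, highest for dexamethasone and vehicle, which cannot show whether arrays were paired.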

Additional observations from a re-analysis of the deposited data

Results flagged for a closer look

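The effect of dexamethasone differed between livers with and without AICAR for 7 of the 10 genes, by the interaction term of limma. The difference (effect with AICAR minus effect without) was 2.48 for Cxcl1, 1.72 for Ccl2, 0.53 for Cxcl11, -2.07 for Cxcl10, -1.30 for Cxcl9, -1.21 for Cxcl12 and -0.58 for Nfkbia on the log2 scale. Array-wide the interaction was called for 15.6% of probe sets and 20% of all named genes. All 7 kept their call under every alternative run. With 2 arrays per group no array could be tested as far from its group.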

How the results depend on the processing

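Over 15 alternatives, 30 of 43 called differences of the 10 genes kept their call, 13 lost it in at least 1, and 7 uncalled ones were called in at least 1. No called difference turned its sign, and 4 uncalled ones did. Of 125 called differences of 33 other genes, 96 kept their call and 28 lost it in at least 1, and the interaction of Bcl3 (0.59) turned to -0.017 with the mean over its probe sets. The count of called genes moved by over 1.5 times in 2 comparisons. For AICAR against vehicle it was 8, but 5 when only those groups were fitted and 4 to 7 when 1 array was left out, and for dexamethasone against vehicle it was 8, but 5 to 7 when 1 array was left out. Leaving out 1 array gave 7 to 17 other pathway genes after AICAR (16 with all arrays), 34 to 54 for the combination against AICAR (56) and 17 to 23 for the interaction (31), with fewer samples in each fit. With all arrays the shares of the listed genes called were 14.7%, 51.4% and 28.4%, beside 15.2%, 38.2% and 20% of all named genes. Where a group was left with 1 array, that array is assumed to vary like the others. With the replicate number as a block, 7, 7, 6, 6, 8 and 7 genes were called for dexamethasone, AICAR and the combination against vehicle, the combination against dexamethasone and against AICAR, and the interaction; of these genes Cxcl11 alone lost calls, after dexamethasone (adjusted p = 0.0503) and AICAR (adjusted p = 0.0678).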
